A study of Mus musculus with 16 samples.

Results

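Upf3b and Upf3a are paralogous genes of nonsense-mediated RNA decay (NMD), and all of their transcripts in the deposited tables were followed in mouse brain with and without Upf3b. The tables held 142435 transcripts, of which 6 belong to these 2 genes, 3 to Upf3b and 3 to Upf3a. They were found by matching transcript identifiers to the annotation, and each was examined alone and summed per gene. RNA came from frontal cortex (FC) and cerebellum (Cere) of adult mice with a null Upf3b gene (Upf3b-KO) and of Ctrl littermates, with 4 libraries per region and genotype. No treatment is given in the labels. The sources used here do not say how the null allele was made, which exons it affects, or what strain, sex or exact age the mice were. Library 1 of the Upf3b-KO cerebellum held only 64981 counts and was left out, so that group had 3 libraries and 15 of 16 libraries were used. Both regions came from 4 mice per genotype, but nothing in the labels ties a library to a mouse, so comparisons between regions treat all libraries as independent, and p-values measure the spread between these libraries.

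NMD degrades mRNAs on which translation ends upstream of an exon junction complex (EJC), the protein mark that splicing leaves near exon–exon junctions. Upf3b, encoded on the X chromosome, binds the EJC and connects it with Upf2 and the RNA helicase Upf1, and loss of human UPF3B is known as a cause of intellectual disability. Upf3a is its autosomal paralog. It also binds Upf2 and is known both as a weak NMD activator that can stand in for Upf3b and, in some settings, as an inhibitor of the pathway.

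In GRCm39, Upf3b (ENSMUSG00000036572) lies on the minus strand at chrX:36355174-36374019 and Upf3a (ENSMUSG00000038398) on the plus strand at chr8:13835584-13849194. Upf3b-201 (ENSMUST00000076265) is the full-length protein-coding transcript, with 10 exons, 2366 nt and a coding sequence of 1416 nt. Upf3b-202 (ENSMUST00000130324) is an annotated coding fragment of 780 nt that begins inside exon 4 and ends inside exon 9 of Upf3b-201. It carries an alternative exon of 39 bases, at chrX:36362719-36362757, between exons 7 and 8 of Upf3b-201. Upf3b-203 (ENSMUST00000133481, 2553 nt) has no defined coding sequence, and its last exon starts with the same 39 bases and runs on into the intron for 1655 bases in all. Upf3a-201 (ENSMUST00000043767) is the full-length protein-coding transcript of the paralog, with 9 exons, 2060 nt and 1266 coding nt. Upf3a-202 (ENSMUST00000211643) and Upf3a-203 (ENSMUST00000211724) are annotated as retained introns: the former continues past exon 2 for 784 bases and the latter past exon 5 for 3024 bases. The following sequences, in transcript direction, show the places where the isoforms part. Capitals mark bases that the full-length transcript lacks, and the first pair for Upf3a is at exon 2 and the second at exon 5.
Upf3b-201, exons 7 and 8: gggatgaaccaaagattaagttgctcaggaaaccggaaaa
Upf3b-202: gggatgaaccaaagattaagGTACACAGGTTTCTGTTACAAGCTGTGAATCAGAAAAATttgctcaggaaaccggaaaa
Upf3b-203: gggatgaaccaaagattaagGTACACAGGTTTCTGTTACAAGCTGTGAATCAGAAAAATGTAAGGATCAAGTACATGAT
Upf3a-201, exons 2 and 3: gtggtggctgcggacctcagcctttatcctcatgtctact
Upf3a-202: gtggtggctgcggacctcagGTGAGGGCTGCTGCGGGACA
Upf3a-201, exons 5 and 6: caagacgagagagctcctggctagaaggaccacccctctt
Upf3a-203: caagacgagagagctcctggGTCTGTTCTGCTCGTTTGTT

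**Figure D1:**
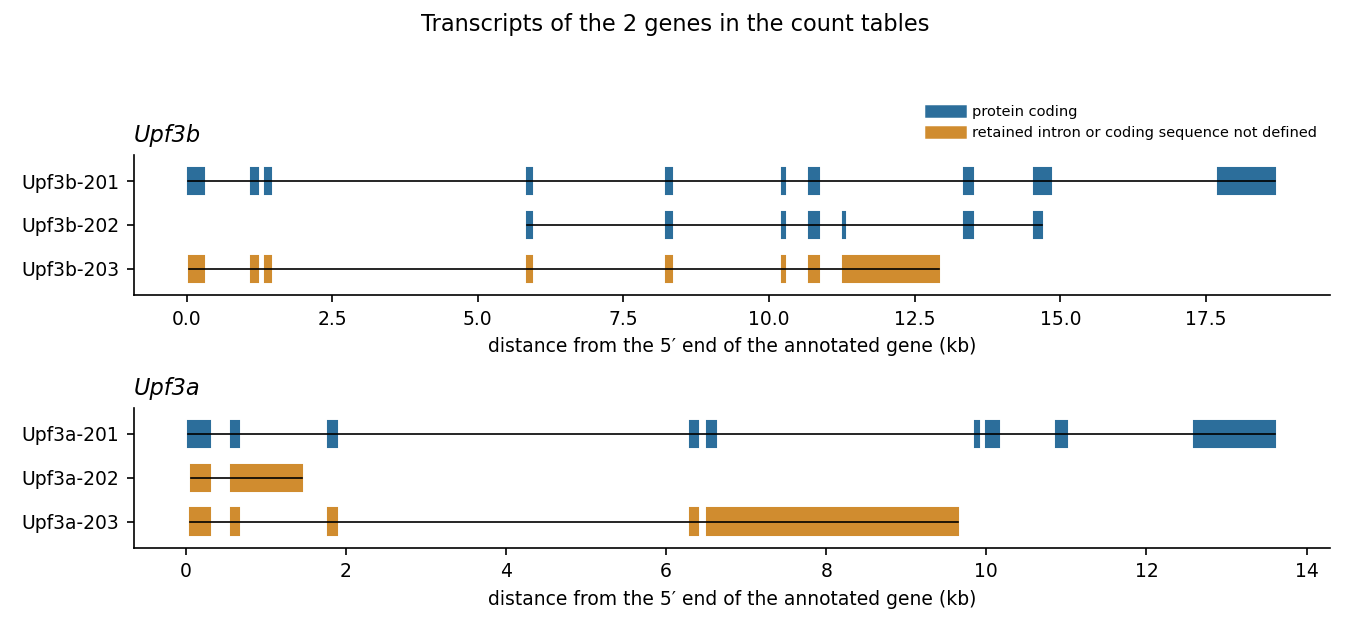
Exons (boxes) and introns (lines) of the 6 transcripts, drawn to scale by distance in kb from the annotated 5′ end of each gene. Blue marks protein-coding transcripts and orange those with a retained intron or no defined coding sequence. Upf3b-202 holds the 39-base exon that Upf3b-201 skips, and the last exon of Upf3b-203, Upf3a-202 and Upf3a-203 runs on into an intron.

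These differences set how well the isoforms can be told apart. Of all windows of 50 bases, 52.2% of those of Upf3b-201, 6.70% of those of Upf3b-202 and 62.9% of those of Upf3b-203 occurred in no other transcript of the tables. The value of Upf3b-202 therefore rested on 49 windows around the 39-base exon and on how RSEM divided reads that fit several isoforms. For Upf3a the shares were 66.4%, 72.5% and 82.9% for Upf3a-201, Upf3a-202 and Upf3a-203. Exons 2 to 5 of the full-length transcripts had the same lengths in both genes, 107, 107, 99 and 111 bases, and 67.2% of their 424 bases were identical position by position. The longest identical run in them was 15 bases, and none of the windows of Upf3b-201 occurred in another gene, while 51 of the 2011 windows of Upf3a-201 (2.54%) occurred in 137 other genes and 41 windows of Upf3b-203 (1.64%) in 264 other genes. The present annotation (GENCODE vM39) lists 14 transcripts for Upf3b and 22 for Upf3a, and 11 and 19 of them were not in the tables, including 6 and 11 of the decay type. Reads from those have no transcript of their own in these values.

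The 15 libraries held 27660078 to 35238677 counts, so 3 counts corresponded to 0.0851 to 0.108 CPM (CPM are counts scaled to the same total in every library). The region labels were followed by Gabra6, a receptor subunit of cerebellar granule cells, which averaged 0.0753 CPM in Ctrl frontal cortex and 747 CPM in Ctrl cerebellum. Upf3b-KO and Ctrl differed widely. With edgeR's quasi-likelihood test and an adjusted p under 0.05, 53.3% of the genes tested differed in frontal cortex (28% higher and 25.3% lower in Upf3b-KO) and 64.4% in cerebellum (33.1% higher and 31.3% lower). With the stricter thresholds of the study (a change of more than 2-fold at an adjusted p below 0.01), 1.06% and 2.86% of genes were lower. Passing the first threshold alone therefore did not set a gene apart in these data.

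Upf3b fell to a small remainder in both regions. In frontal cortex, Upf3b stood at 14.2, 15.7, 14.6 and 14.8 CPM in Ctrl libraries 1 to 4 and at 0.566, 0.229, 0.857 and 0.586 CPM in the Upf3b-KO libraries. The Ctrl cerebellum libraries held 23.1, 23.6, 20.9 and 23.1 CPM, and Upf3b-KO libraries 2, 3 and 4 held 0.628, 0.965 and 0.617 CPM. Every Upf3b-KO library lay far below every Ctrl library of its region. The remaining level averaged 3.77% of the Ctrl mean in frontal cortex and 3.25% in cerebellum. Log2 fold changes in the fit over all genes were −4.79 (SE 0.16, adjusted p = 4.75e-16) and −4.97 (SE 0.13, adjusted p = 7.67e-17), both past the stricter thresholds too. The loss did not differ detectably between the regions (difference of log2 fold changes −0.19, 95% interval −0.77 to 0.40, adjusted p = 0.629).

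**Figure D2:**
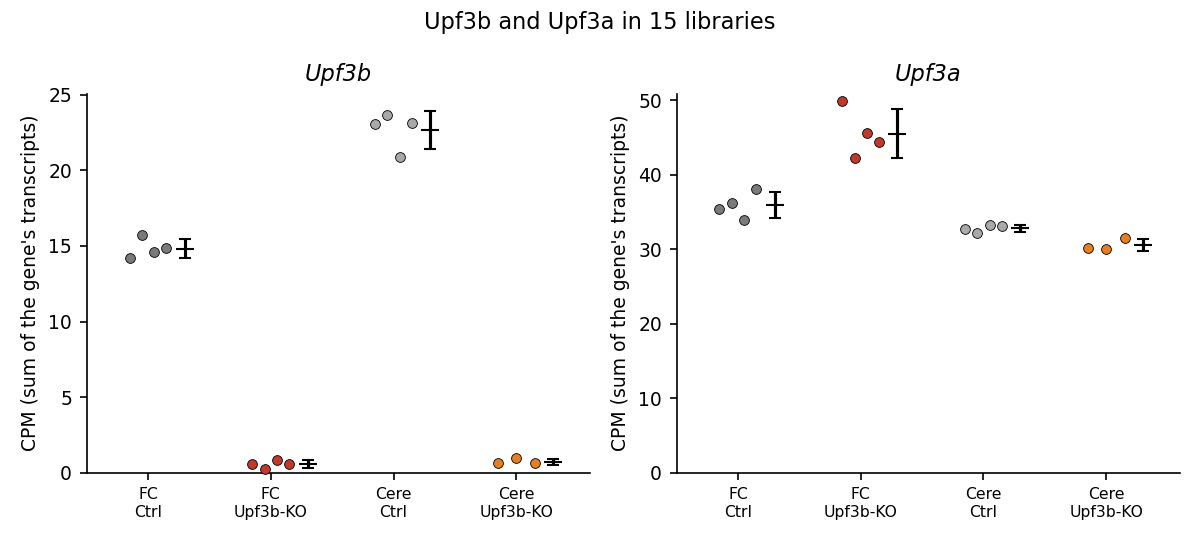
Upf3b (left) and Upf3a (right) in CPM, summed over the transcripts of each gene, in frontal cortex (FC) and cerebellum (Cere). Points are libraries, 4 per group and 3 in the Upf3b-KO cerebellum, and bars give the mean ± SD. Upf3b drops to between 0.229 and 0.965 CPM in every Upf3b-KO library, and Upf3a is higher in the Upf3b-KO frontal cortex than in the other 3 groups.

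What remained in the Upf3b-KO was assigned entirely in frontal cortex, and to 84.7% in cerebellum, to the full-length transcript. In cerebellum the rest came from library 4 alone, where Upf3b-201 received 9.82 of 21 Upf3b counts. Exon 10 of Upf3b-201 (987 bases) is in neither of the other Upf3b transcripts, so the assignment need not rest on the junction of exons 7 and 8. Upf3b-201 received 19, 7, 26 and 19 counts in the 4 frontal cortex Upf3b-KO libraries, that is all 71 Upf3b counts there, against 440 to 493 in each Ctrl library. In the cerebellum it received 18, 34 and 9.82 counts, against 512 to 717 in Ctrl. Both reductions passed the test across all transcripts, with a log2 fold change of −4.71 (SE 0.34, adjusted p = 5.55e-05) in frontal cortex, where 7.68% of transcripts passed as lower, and −4.96 (SE 0.38, adjusted p = 0.000115) in cerebellum, where 10.3% did. The deposited values give counts per transcript and not per exon, so they do not show which exons the remaining reads covered.

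The minor Upf3b transcripts were low already in Ctrl. Upf3b-202 received 6.99, 19.4, 2.77 and 0 counts in the Ctrl frontal cortex libraries and 19.5, 5.58, 41.8 and 21.98 in the Ctrl cerebellum libraries. It was at 0 in all 7 Upf3b-KO libraries. Against a floor of 3 counts over the group, its pooled level was at least 9.29-fold lower in the frontal cortex and at least 22.9-fold lower in the cerebellum. Single libraries moved these bounds, to 4.13-fold without Ctrl library 2 in frontal cortex and to 14.7-fold and 14.9-fold without Upf3b-KO library 3 or 4 in cerebellum. The frontal cortex groups met at 0, since Ctrl library 4 was also at 0, and the transcript was under the filter for testing there. In the cerebellum every Upf3b-KO library was below every Ctrl library and it passed the edgeR test (adjusted p = 0.0153), but without Ctrl library 1, 3 or 4 it fell under the filter and could not be tested. With the replicate number as a block in the same test, Upf3b-202 did not pass there (adjusted p = 0.141).

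Upf3b-203, which ends in the intron, received 14.96, 13.6, 7.57 and 38.2 counts in Ctrl frontal cortex and 60.2, 99.5, 78.0 and 41.4 in Ctrl cerebellum. All 4 Upf3b-KO frontal cortex libraries were at 0, at least 23.7-fold lower than Ctrl against the same floor (15.2-fold without Ctrl library 4). In the Upf3b-KO cerebellum, libraries 2 and 3 were at 0 and library 4 held 11.2 counts, and the adjusted p was 0.0552. Without library 4 it was 0.00227, and with all 7 libraries DESeq2 gave 0.00029, so the call depended on that library and on the test. In Ctrl, the minor transcripts together made up 5.25% of Upf3b counts in frontal cortex and 12.8% in cerebellum. At those shares, the 71 and 73 Upf3b counts of the Upf3b-KO groups would have included 3.73 and 9.35 counts of the minor transcripts, where 0 and 11.2 were found. A count of 0 of 71 allows a share of up to 4.23%, for counting error only. Among the Ctrl frontal cortex libraries Upf3b-201 took 92.0% to 97.9% of Upf3b counts, so the share left to the minor transcripts lay on both sides of that limit. In cerebellum the minor transcripts made up 15.3% of the remainder, all of it from library 4 (11.2 of its 21 Upf3b counts). The mixture could not be tested in frontal cortex, and in cerebellum its difference from Ctrl did not pass edgeR's test of isoform usage (adjusted p = 0.564).

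**Figure D3:**
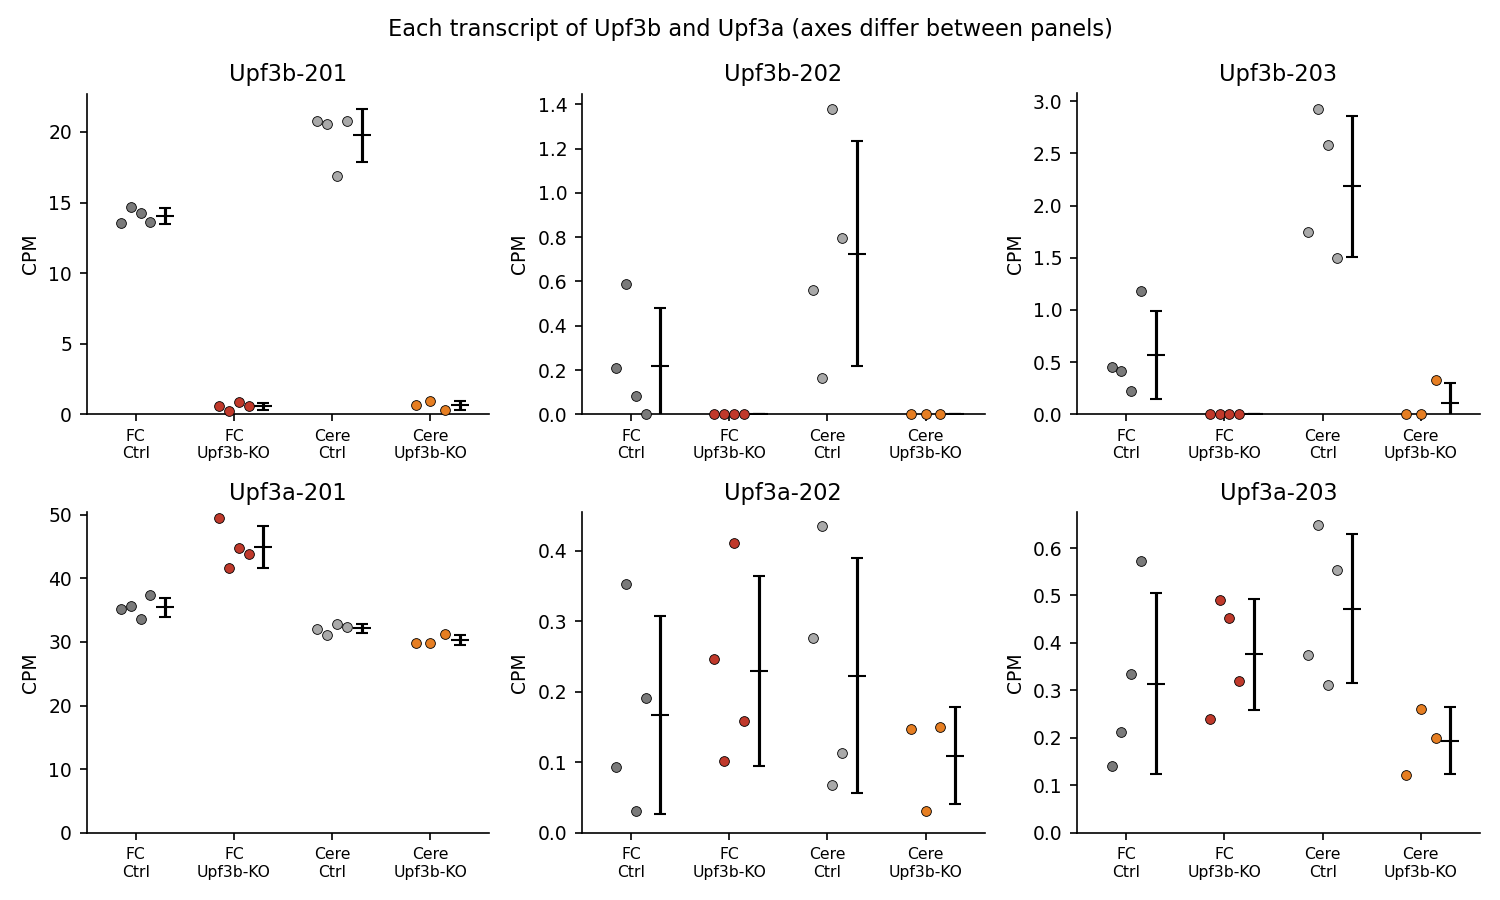
Each of the 6 transcripts in CPM by library, with a separate axis in each panel, starting at 0. Points are libraries (FC, frontal cortex; Cere, cerebellum), and bars give the mean ± SD, cut off at 0. Upf3b-202 is at 0 in 7 of 7 Upf3b-KO libraries and Upf3b-203 in 6 of 7, and the retained-intron transcripts of Upf3a stay at or under 0.650 CPM in every library.

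Upf3a moved in opposite directions in the 2 regions. In frontal cortex, the Ctrl libraries stood at 35.4, 36.3, 34.0 and 38.1 CPM and the Upf3b-KO libraries at 49.9, 42.2, 45.6 and 44.4 CPM. All 4 Upf3b-KO libraries were above all 4 Ctrl libraries. Upf3a rose by 20.4% in the scaled fit (95% interval 12.4% to 29.0%; log2 fold change 0.27, SE 0.048, adjusted p = 6.41e-05). In cerebellum, the Ctrl libraries stood at 32.7, 32.2, 33.2 and 33.1 CPM and the Upf3b-KO libraries at 30.2, 30.1 and 31.5 CPM. Here the Upf3b-KO libraries all lay below the Ctrl libraries. Upf3a fell by 0.15 on the log2 scale (SE 0.043, adjusted p = 0.00523), a change of −9.90% (95% interval −15.4% to −4.04%). Scaled by library totals alone, as CPM are, the cerebellar change was −0.10 with an adjusted p of 0.051, past the threshold no longer. The frontal cortex change was 0.34 with that scaling (adjusted p = 2.98e-06). Neither change reached 2-fold.

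The difference between the regions was tested directly. The log2 fold change of Upf3a was 0.43 smaller in cerebellum than in frontal cortex (interaction −0.43, SE 0.068, 95% interval −0.57 to −0.29, adjusted p = 7.84e-06). Of all genes tested, 48% passed this interaction test at an adjusted p under 0.05. Among Ctrl libraries alone, Upf3a differed by −10.4% in cerebellum against frontal cortex (log2 −0.16, SE 0.046, adjusted p = 0.00365) and Upf3b was 49.96% higher (log2 0.58, SE 0.097, adjusted p = 6.6e-06), where 73.1% of genes passed. Among Upf3b-KO libraries, Upf3a differed by −33.4% in cerebellum against frontal cortex (log2 −0.59, SE 0.050, adjusted p = 8.52e-11), where 68% of genes passed. The order of the Upf3a means was Upf3b-KO frontal cortex, Ctrl frontal cortex, Ctrl cerebellum and Upf3b-KO cerebellum, at 45.5 ± 3.25, 35.9 ± 1.72, 32.8 ± 0.451 and 30.6 ± 0.828 CPM (SD), and no neighbouring groups in that order overlapped in their library values.

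Markers of other cell types moved with genotype in the same libraries. The 6 choroid plexus markers, Ttr among them, summed to 17.3 to 18.2 CPM in Ctrl and 2124 to 2178 CPM in Upf3b-KO frontal cortex, and to 28.3 to 32.3 and 1366 to 1387 CPM in cerebellum. All 6 passed as higher in both regions, beside 28% of all genes in frontal cortex and 33.1% in cerebellum. In frontal cortex, 6 of 6 markers of striatal medium spiny neurons (136 to 145 CPM in Ctrl, 706 to 717 in Upf3b-KO) and 6 of 6 of male germ cells (14.03 to 15.9 and 98.4 to 104.5 CPM) were higher as well, beside 28% of all genes. In cerebellum the sums of these lists were lower in Upf3b-KO, at 365 to 378 and 314 to 324 CPM for the striatal list, where 3 of 6 genes passed as higher and 1 as lower, and at 27.8 to 30.1 and 15.89 to 15.98 CPM for the germ cell list, where 3 of 4 tested passed as higher and 1 as lower. Of all genes in cerebellum, 33.1% passed as higher and 31.3% as lower. The 5 markers of cortical excitatory neurons summed to 1585 to 1643 CPM in Ctrl and 1498 to 1516 CPM in Upf3b-KO frontal cortex, where 3 passed as lower and 1 as higher, beside 25.3% and 28% of all genes. In cerebellum, 5 of 5 granule cell markers (3745 to 3779 and 2060 to 2064 CPM) and 4 of 4 Purkinje cell markers (6625 to 6766 and 2451 to 2466 CPM) were lower, beside 31.3% of all genes. These sums varied little between libraries of a group, and whether the libraries of a group are separate mice cannot be told from the labels, so the spread behind the p-values may be technical. In bulk tissue, fewer cells of a type and less RNA per cell cannot be told apart. The part of these shifts in the changes of Upf3a was not tested.

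The Upf3a isoforms did not shift detectably. Upf3a-201 carried 98.7% ± 0.584 (SD, n = 4) of Upf3a counts in Ctrl frontal cortex and 98.7% ± 0.412 (n = 4) in Upf3b-KO, with a two-sided exact permutation p of 0.971. In cerebellum its share was 97.9% ± 0.918 (n = 4) and 99.0% ± 0.112 (n = 3), higher by 1.14 percentage points with every Upf3b-KO library above every Ctrl library. Without Ctrl library 2 the difference was 0.724 percentage points, and with shares of length-normalized values Ctrl library 3, at 99.1%, lay above Upf3b-KO libraries 2 and 4, at 98.9% and 98.8% (exact p = 0.171). For the difference of 1.14 percentage points in count shares, the exact p was 0.0571, the smallest that 4 against 3 libraries allow. It was 0.171 after Benjamini-Hochberg adjustment over the 6 share tests. The log2 fold changes of Upf3a-201 were 0.28 in frontal cortex (SE 0.058, adjusted p = 0.0136; 8.67% of transcripts passed as higher) and −0.087 in cerebellum (SE 0.042, adjusted p = 0.202). With the replicate number as a block, the frontal cortex value stayed at 0.28 but did not pass (edgeR, adjusted p = 0.0592).

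The retained-intron transcripts stayed rare. Upf3a-203 received 4.66, 6.98, 11.5 and 18.5 counts in Ctrl and 8.08, 15.04, 13.7 and 10.4 in Upf3b-KO frontal cortex, which overlap. In cerebellum it received 13.0, 22.1, 9.45 and 15.3 counts in Ctrl and 3.48, 9.20 and 6.83 in Upf3b-KO, a share of 1.44% ± 0.491 and 0.636% ± 0.233 of Upf3a counts. Every Upf3b-KO library was below every Ctrl library there. The exact permutation p of the share was 0.0571, the smallest possible, and 0.171 after Benjamini-Hochberg adjustment. In edgeR the log2 fold change of Upf3a-203 in cerebellum was −1.28 (SE 0.53, adjusted p = 0.14). Upf3a-202 had 1.05 to 14.8 counts in the 15 libraries, under the filter for testing, and overlapped between genotypes in both regions. In edgeR's test of isoform usage, the adjusted p of Upf3a was 0.973 in frontal cortex and 0.0944 in cerebellum, where 7.44% and 9.64% of genes passed.

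To set the paralogs beside each other, levels were expressed per annotated transcript length as TPM, in which counts divided by length are scaled to the same total in every library. In Ctrl, Upf3a exceeded Upf3b 2.72-fold in frontal cortex (42.1 ± 2.05 and 15.5 ± 1.10 TPM) and 1.57-fold in cerebellum (40.3 ± 0.574 and 25.6 ± 0.445 TPM; SD, n = 4 each). Upf3a was thus 73.0% of the summed level of both genes in Ctrl frontal cortex and 61.1% in Ctrl cerebellum, and the ranges, 71.3% to 74.8% and 60.6% to 61.9%, did not overlap. In Upf3b-KO it was 99.0% and 98.0%. In frontal cortex, Upf3b dropped by 14.98 TPM and Upf3a was 11.4 TPM higher, and the sum of both genes was 57.7 ± 2.51 TPM in Ctrl and 54.1 ± 4.07 in Upf3b-KO, 93.8% of Ctrl with overlapping libraries. TPM lack the scaling of the fit over all genes, in which the log2 rise of Upf3a was 0.27, against 0.34 by library totals alone. With that scaling the rise and the Upf3b-KO sum in frontal cortex would be lower, but they were not recomputed. In cerebellum, Upf3b dropped by 24.9 TPM and Upf3a dropped by 4.22 TPM, and the sum went from 65.9 ± 0.7102 (n = 4) to 36.8 ± 0.905 TPM (n = 3), 55.8% of Ctrl.

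**Figure D4:**
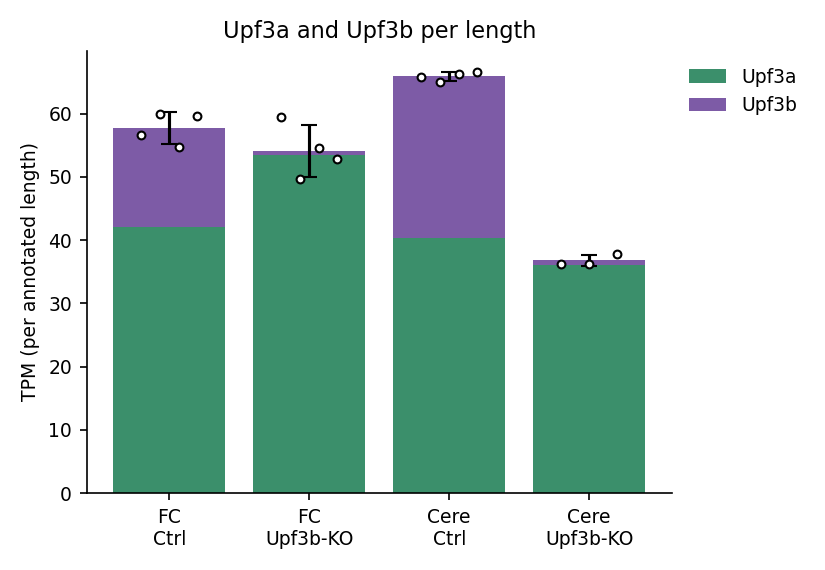
Mean Upf3a (green) and Upf3b (purple) in TPM per annotated length, stacked, in frontal cortex (FC) and cerebellum (Cere). Error bars give the SD of the sum and white points the sum in each library. The sum is 57.7 and 54.1 TPM in Ctrl and Upf3b-KO frontal cortex and 65.9 and 36.8 TPM in cerebellum. These values lack the scaling of the fit over all genes.

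The partners of Upf3b and Upf3a in NMD and the EJC were read from a list of 24 genes, all of which were tested in both regions. In frontal cortex 8 rose and 6 fell, 58.3% of the list beside 53.3% of all genes, with a median log2 fold change of −0.0068 (all genes 0.0037). In cerebellum 3 rose and 14 fell, 70.8% beside 64.4%, with a median of −0.17 (all genes 0.0077). None passed the stricter thresholds in either region (0 of 24). The spread of the list, in frontal cortex from −0.34 to 0.56 and in cerebellum from −0.38 to 0.34, held the values of Upf3a.

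Smg5, an adaptor that binds phosphorylated Upf1, rose most in frontal cortex, from 39.9 ± 1.08 to 62.1 ± 2.22 CPM (log2 0.56, adjusted p = 1.38e-11), and rose in cerebellum by 0.29 (adjusted p = 2.49e-06). Upf2, the direct partner of both Upf3 proteins, rose by 0.49 in frontal cortex (42.2 ± 2.36 to 62.5 ± 1.98 CPM, adjusted p = 6.52e-10) and by 0.34 in cerebellum (adjusted p = 6.18e-08). Upf1 rose by 0.29 in frontal cortex (adjusted p = 1.48e-06) and stood at −0.064 in cerebellum (adjusted p = 0.0617). Pnrc2, which links Upf1 to decapping, fell by 0.25 in frontal cortex (adjusted p = 5.59e-07) and by 0.29 in cerebellum (adjusted p = 2.35e-07). The EJC core helicase Eif4a3 was at −0.093 in frontal cortex (adjusted p = 0.0625) and fell by 0.21 in cerebellum (adjusted p = 2.83e-05). The smallest adjusted p-value in cerebellum belonged to Acin1, a scaffold of an EJC-associated complex (fell by 0.38, adjusted p = 3.02e-08). Acin1 and the Upf1 kinase Smg1 had the opposite sign in frontal cortex, at 0.16 and 0.36. The interaction test was read out for Upf3b and Upf3a only, so no result on the difference between the regions is given for these genes.

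**Figure D5:**
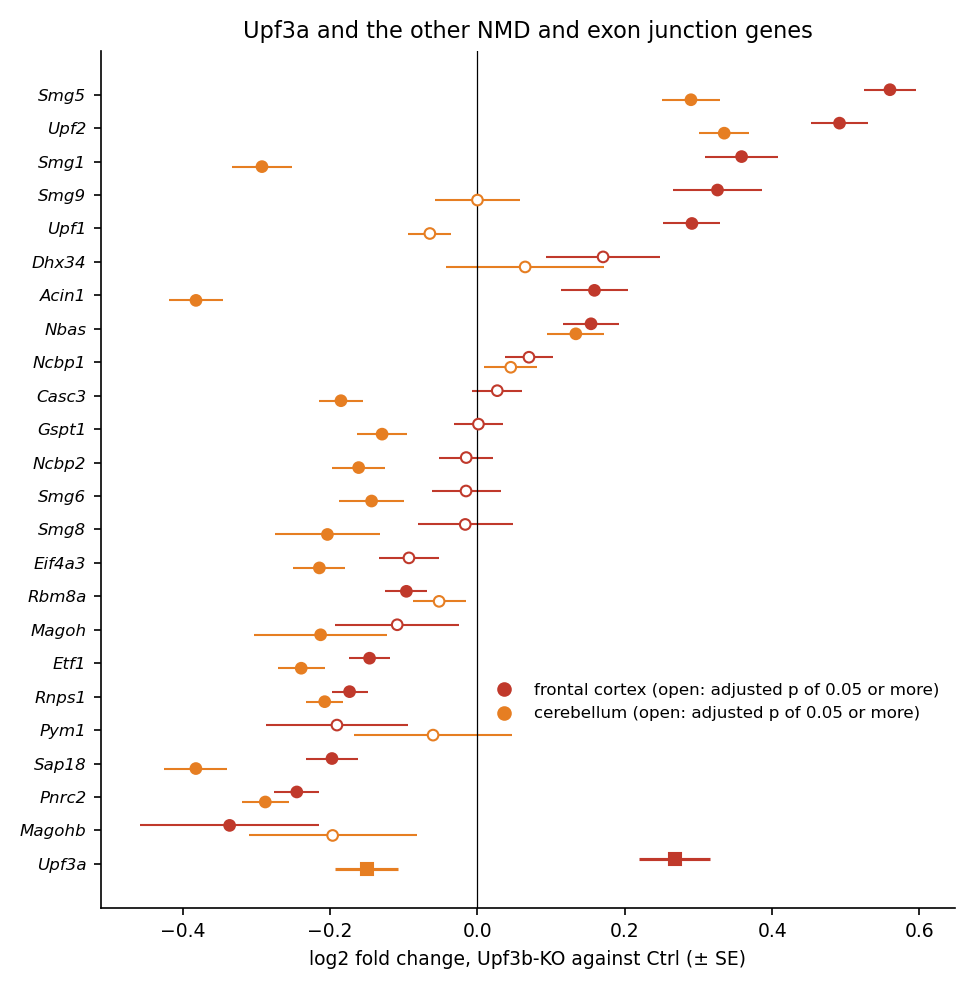
Log2 fold changes (Upf3b-KO against Ctrl, ± SE) of 23 of the 24 NMD and EJC genes (circles) and of Upf3a (squares) in frontal cortex (red) and cerebellum (orange). Filled circles have an adjusted p under 0.05. Upf3a, at 0.27 and −0.15, lies within the spread of the list in both regions, and of the whole list 14 genes pass as lower in cerebellum and 6 in frontal cortex, where 31.3% and 25.3% of all genes do.

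The genes on either side of Upf3b and of Upf3a were examined as their neighbourhood. Of the 3 nearest protein-coding genes on each side of Upf3b, 5 of 6 were tested, 2 passed in frontal cortex and 5 in cerebellum, beside 53.3% and 64.4% of all genes. Rpl39, a ribosomal protein gene 6044 bp away, was at −0.21 in frontal cortex (adjusted p = 0.00135) and 0.15 in cerebellum (adjusted p = 0.0207). Akap14 was low throughout, at 0.255 ± 0.0443 CPM in Ctrl and 0.730 ± 0.196 CPM in Upf3b-KO frontal cortex, and at 0 in all 4 Ctrl and 0.449 ± 0.202 CPM in the Upf3b-KO cerebellum libraries, and it passed as higher in both (adjusted p = 0.00281 and 5.51e-05). Sowahd was too low to test. Nkap, Septin6 and Ndufa1 were at 0.11, −0.060 and 0.034 in frontal cortex (adjusted p = 0.248, 0.0718 and 0.374) and at −0.24, −0.095 and 0.14 in cerebellum (adjusted p = 0.00289, 0.00859 and 0.000653). Around Upf3a, 2 of 6 tested passed in frontal cortex and 3 of 5 in cerebellum. Cdc16, a subunit of the anaphase-promoting complex that lies 2366 bp away, was at 0.048 and −0.011 (adjusted p = 0.25 and 0.811). Coprs was at −0.053 in frontal cortex and rose by 0.58 in cerebellum (adjusted p = 1.01e-08), and Semp2l2a rose from 0.295 ± 0.128 to 2.16 ± 0.681 CPM in frontal cortex (adjusted p = 2.18e-07). Cfap97d2 was at 0.15 and −0.0077 (adjusted p = 0.728 and 0.985). Rasa3 was at 0.13 and −0.34 (adjusted p = 8.36e-05 and 5.94e-10), and Champ1 at −0.0047 and −0.33 (adjusted p = 0.931 and 8.67e-07).

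The genes most like each member were ranked by Pearson's r of log2(CPM + 0.5) over the 15 libraries, among the 11985 genes that averaged 5 CPM or more. For Upf3b these were Ccar2, Snapc1, Ubb, Pttg1 and Rabl2 (r of 0.996, 0.995, 0.995, 0.995 and 0.99). All 5 were lower in Upf3b-KO in both regions, for example Pttg1 (securin), at 40.3 and 3.88 CPM in frontal cortex and 42.1 and 4.19 CPM in cerebellum, and Ccar2, at 95.9 and 16.8 and at 108 and 17.7 CPM. For Upf3a they were Ccdc181, Acvr1c, Arel1, Ptprk and Rasl11b (r of 0.964, 0.962, 0.961, 0.958 and 0.957), all highest in the Upf3b-KO frontal cortex and lowest in the Upf3b-KO cerebellum. The libraries fall into 4 groups, so these values mostly describe the pattern of the group means.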

How the data were processed

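Bulk RNA-seq was performed by the authors on frontal cortex and cerebellum of Upf3b-KO mice and Ctrl littermates. Total RNA was depleted of ribosomal RNA, libraries were made with a SMART-Seq kit and read pairs were sequenced on a NovaSeq. Per the labels, reads were aligned with STAR 2.5.2b to GRCm39 and quantified with RSEM. The authors deposited RSEM's expected count of each Ensembl transcript, not scaled for depth or length, in a table for each region. Whether strand was used is not given in the sources used here. Symbols, exons and sequences come from GENCODE vM39 (GRCm39), which matched 141102 of the 142435 transcripts; 0.582% to 0.640% of counts were on unmatched ones. The annotated antisense gene Gm64012, which overlaps Upf3a exon 1, was not in the tables.

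Groups were taken from the labels, and 0 columns lacked a sample. Values were rounded to whole counts and tested with edgeR 4.0.16 in R 4.3.3 (filterByExpr with a minimum count of 10 and a minimum total of 15, TMM scaling, quasi-likelihood F test, Benjamini-Hochberg over all features) within each region; the interaction and region contrasts used all 15 libraries. Isoform usage was tested with diffSpliceDGE, and transcript shares with exact two-sided permutation tests over libraries. CPM use library totals, and TPM the annotated lengths. Intervals are at 95%; those of fold changes come from the fit across libraries, while the Poisson interval and floors of 3 counts cover counting error only. Replicate libraries of a group differed beyond counting noise (chi-square per degree of freedom 2.74 to 3.79 over genes), though whether they are separate mice cannot be told from the labels. Members, lists and rules were chosen with earlier results of these data known. Named genes were every transcript of the members (described in full at a mean of at least 0.1 CPM in any group, which all 6 reached), the 3 NMD-list genes with the smallest adjusted p per region with Upf1, Upf2 and Eif4a3, the 3 nearest protein-coding genes on each side, and the 5 most correlated genes. Any other list gene or marker in the text was picked with its value in view. A named gene of the NMD list and a marker are not reported here, though counts and sums include them.

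On simulated counts with known changes, the gene fit recovered 58.2% of 1.2-fold changes in frontal cortex and 53.7% in cerebellum, and 94% and 89.6% of 2-fold changes. The transcript fit recovered 1.49% of 1.2-fold and 20.9% of 2-fold changes in either region. The usage test recovered 13.8% (frontal cortex) and 11.9% (cerebellum) of 2-fold and 40.4% and 35.1% of 4-fold changes of a transcript and made 49 and 52 false calls, so small isoform shifts could be missed and its background shares may run high. Only 51 to 67 features per fold were changed in each simulation, while 53.3% and 64.4% of genes passed in the data. The recovered shares may therefore differ in the data.

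Alternatives were DESeq2 1.42.0, median-of-ratios (RLE) scaling, other filters, the shallow library included, one fit over 15 libraries, the replicate block, leaving out each library, the thresholds of the study, unrounded counts, gene sums without decay and retained-intron transcripts, limma 3.58.1 (voom, diffSplice), and shares of length-normalized values. Scaling by library totals alone was added after seeing the data.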

Additional observations from a re-analysis of the deposited data

Results flagged for a closer look

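The change of Upf3a in Upf3b-KO differed between frontal cortex and cerebellum by the interaction test over 15 libraries (edgeR, log2 −0.43, adjusted p = 7.84e-06). In frontal cortex 4 of 4 Upf3b-KO libraries lay above all Ctrl libraries, and in cerebellum 3 of 3 lay below. Such separation in CPM was not particular to Upf3a, and the share of all genes that separated was not computed. In frontal cortex, for example, Casc3 of the NMD list separated in the same way but did not pass the edgeR test (log2 0.027, adjusted p = 0.535).

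Upf3b-201 in Ctrl cerebellum library 3, at 16.9 CPM, stood apart from libraries 1, 2 and 4, at 20.8, 20.6 and 20.8 CPM. In the same library Upf3b-202 had the highest value of its group, 1.38 CPM against 0.164 to 0.795. This was 1 of 22 sets of 4 libraries examined, and chance singles out about 1 in 20.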

How the results depend on the processing

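Of 369 recomputed values, 346 kept their direction and side of the threshold or, for counts, stayed within 1.5 times. Except at the thresholds of the study, the NMD list had 8 to 9 genes higher and 5 to 7 lower in frontal cortex, and 3 higher and 12 to 14 lower in cerebellum. At the thresholds of the study, Upf3a no longer passed in frontal cortex (0.27), cerebellum (−0.15), the interaction (−0.43), Ctrl (−0.16) or Upf3b-KO (−0.59) between regions, nor did Upf3b between Ctrl regions (0.58), and 0 genes of the NMD list passed in either direction or region, because these thresholds demand a 2-fold change. Scaled by library totals only, a choice made after seeing the data, Upf3a in cerebellum was −0.10 (edgeR, adjusted p = 0.051). With the shallow library included, the share of Upf3a-201 in cerebellum was higher by 1.38 percentage points (exact p = 0.0286), with 5 Upf3a counts in that library. Upf3b-203 in cerebellum passed with DESeq2 (adjusted p = 0.00029), with the shallow library (0.0499) and without Upf3b-KO library 4 (0.00227); the cause was not tested for the first pair. Leaving out each library gave −0.44 to 0.072 for the interaction of Upf3b, positive without frontal cortex Upf3b-KO library 3, −0.061 to 0.58 for Upf3a-203 in frontal cortex, negative without Ctrl library 1, and −0.241 to 0.208 percentage points for the share of Upf3a-201 in frontal cortex; none of these passed a test. In cerebellum that share differed by 0.724 to 1.46 percentage points, lowest without Ctrl library 2. Under the same omissions, Upf3a ranged in frontal cortex from 0.22 to 0.30, and in cerebellum from −0.17 to −0.14. Upf3b-202 in cerebellum fell under the filter without Ctrl library 1, 3 or 4 or with the shallow library included. The restriction of usage to transcripts of at least 5% of their gene could not be fitted, since 1 Upf3a transcript remained.

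Libraries with the same replicate number shared no clear deviations from their group means (correlations −0.0438 to 0.0641). This cannot show whether equal numbers stand for the same mouse. With the replicate number as a block, Upf3a-201 in frontal cortex was 0.28 (adjusted p = 0.0592) and Upf3b-202 in cerebellum had an adjusted p of 0.141; the other calls on the members did not change.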

Other observations

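The shallow library 1 of the Upf3b-KO cerebellum held 5 counts of Upf3a, all assigned to Upf3a-201, which is 76.9 CPM with an exact Poisson interval of 25.0 to 180 CPM for counting error, and 0 counts of Upf3b, which allows up to 46.2 CPM at 3 counts. Neither value separates it from Ctrl or from the other Upf3b-KO libraries.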
